A study of Rattus norvegicus with 9 samples.

Results

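MicroRNA-22 (miR-22) was followed here through every rat read that the left ventricular libraries of 3 hearts hold for it. The set was taken by name: all deposited annotated sequences of the species Rattus norvegicus whose miRNA name stem is mir-22, split by the match type given in the file into a mature, a star (*) and a precursor class. It held 773 of the 46358 annotated sequences, and 773 of the 31220 rat sequences. Of the 773, 628 were in the mature class, 26 in the star class and 119 in the precursor class. Because miR-22 was picked knowing that it is among the most abundant miRNAs of these libraries, its level and its rank are given as descriptions, without a test.

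The libraries came from male Sprague-Dawley rats of 8 months, called hearts 6, 7 and 8 as in the labels, with no treatment named. Each heart gave 1 small RNA library for each of 3 layers of its left ventricular free wall, named epicardium, mid-myocardium and endocardium, which makes 9 libraries and 3 per layer. A layer here is a slice of whole wall that holds muscle, vessels, connective tissue and blood, not a cell type, so fewer cells of a type and less RNA per cell cannot be told apart. The annotated reads per library ran from 283991 in mid-myocardium of heart 6 to 1428025 in endocardium of heart 7, so that 3 reads, the limit that a count of 0 allows, correspond to 2.10 to 10.6 reads per 1000000 annotated reads (RPMM). The muscle miRNA miR-133a lay between 47685 and 132474 RPMM and the cardiac miR-208 between 319 and 1070 RPMM, so both were present in every library. The red cell and muscle miRNA miR-486 ran from 92952 to 228287 RPMM and the red cell miRNA miR-451 from 377 to 960 RPMM.

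A miRNA is cut out of a hairpin transcript by Drosha in the nucleus and Dicer in the cytoplasm, which leaves a short duplex of the 2 hairpin arms. One arm, the mature strand, is usually kept in Argonaute, and the other, the star strand, is mostly lost. The bases after the first one form the seed, which pairs with target messages, so a read that starts later has another seed, while a read that ends elsewhere keeps it. Reads with such shifted ends or added bases are called isomiRs. miR-22 is abundant in heart and skeletal muscle and rises in cardiac hypertrophy. Sirt1 and Hdac4 are among its known targets.

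The reference sequences are shown because every read below is described by its distance from them. They are RefSeq entries of the rat assembly GRCr8. The hairpin lies on the plus strand of chromosome 10 at chr10:60805331-60805425, with the mature 3p arm at chr10:60805387-60805408 and the star 5p arm at chr10:60805349-60805370. In the lines of the arms, capitals mark the seed, bases 2 to 8.
miR-22 (mature, 3p arm): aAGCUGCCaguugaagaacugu
miR-22* (star, 5p arm): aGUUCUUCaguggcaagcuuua
In the hairpin, capitals mark both arms, the star first.
miR-22 hairpin: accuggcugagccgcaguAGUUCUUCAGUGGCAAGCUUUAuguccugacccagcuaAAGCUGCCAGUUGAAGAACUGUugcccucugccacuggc
Of 724 rat mature entries in RefSeq, 1 holds the mature seed and 1 the star seed, which in both cases is miR-22 itself, so no other rat miRNA of that table shares either seed. Both arms are 22 nt long, and 16 nt of loop lie between them.

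The reads that carried most of the signal are shown next, as deposited in DNA letters and grouped by how they depart from the mature strand. Capitals mark bases that are not in the mature strand.
mature, exact, 22 nt: aagctgccagttgaagaactgt
1 nt shorter at the 3′ end: aagctgccagttgaagaactg
2 nt shorter at the 3′ end: aagctgccagttgaagaact
3 nt shorter at the 3′ end, filed as precursor: aagctgccagttgaagaac
A added at the 3′ end: aagctgccagttgaagaactgtA
T added at the 3′ end: aagctgccagttgaagaactgtT
last base G: aagctgccagttgaagaactgG
last base A: aagctgccagttgaagaactgA
last base C: aagctgccagttgaagaactgC
1 nt shorter at the 5′ end: agctgccagttgaagaactgt
5 nt shorter at the 5′ end, filed as precursor: gccagttgaagaactgt
star, exact, 22 nt: agttcttcagtggcaagcttta
star, 1 nt shorter at the 3′ end: agttcttcagtggcaagcttt
Of these, all but those that are shorter at the 5′ end keep the seed of their arm.

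The mature class held nearly all of the reads. Summed over the 9 libraries, miR-22 had 1105762 reads, of which 1094441 (98.98%) were mature, 10125 (0.916%) precursor and 1196 (0.108%) star. The reads were concentrated in few sequences: 377 of the 773 were seen as 1 read in all, and 156 had 10 reads or more. The exact mature sequence alone had 1012677 reads and was the most abundant of all annotated sequences in 8 of 9 libraries. The exception was endocardium of heart 7, where a miR-486 sequence stood at 92788 RPMM and exact miR-22 at 91208 RPMM.

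With all entries of the same name stem summed, miR-22 had the highest mean, 148685 ± 24332 RPMM (SD, n = 9 libraries). The next were miR-486, a red cell and muscle miRNA, at 142385 ± 38442 RPMM, the smooth muscle miR-143 at 111162 ± 23257 RPMM and the muscle miR-133a at 89938 ± 25286 RPMM. The means of miR-22 and miR-486 were closer than the SD of either, so their order was not resolved by these libraries. The order is one of reads. The paper raises that adapter ligation and amplification may skew reads between miRNAs. From its TaqMan assays in mid-myocardium it proposes more miR-1 than miR-22 or miR-486, while miR-1 had 2696 to 5903 RPMM here.

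Mature miR-22 stood at 157163, 156541 and 133051 RPMM in the epicardium of hearts 6, 7 and 8. In mid-myocardium it stood at 161012, 132876 and 184047 RPMM in the same order, and in endocardium at 164237, 100133 and 135236 RPMM. The layers overlapped, and the widest spread lay inside the endocardium, between heart 6 and heart 7. In the endocardial library of heart 7, with the lowest mature miR-22, miR-486 was at its highest, 228287 RPMM; the part that one abundant miRNA has in the RPMM of another was not tested.

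The star strand was far rarer. It stood at 127, 162 and 120 RPMM in the epicardium of hearts 6, 7 and 8, at 201, 150 and 204 RPMM in mid-myocardium, and at 219, 136 and 138 RPMM in endocardium. These levels came from 57 to 215 reads a library, and the layers overlapped. The star class held 1.10 ± 0.187 reads per 1000 mature reads (SD, n = 9), from 0.806 in epicardium of heart 6 to 1.36 in endocardium of heart 7. Among the 30 rat miRNAs with a mature class of at least 1000 RPMM and at least 10 star reads in a library, the pooled ratio of miR-22 was the 4th lowest, against a median of 5.57 star reads per 1000 mature reads. In all, 46 rat miRNAs reached 1000 RPMM. Those with fewer star reads, or none, were left out, so low ratios may be missing and the rank and median hold for the 30 only.

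The precursor class behaved otherwise. In heart 6 it stood at 516 RPMM in epicardium, 451 RPMM in mid-myocardium and 468 RPMM in endocardium. In heart 7 it stood at 2810, 1409 and 1026 RPMM in the same order of layers, and in heart 8 at 2224, 988 and 1810 RPMM. All 3 libraries of heart 6 lay below all 6 of the other hearts, in each layer.

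**Figure D1:**
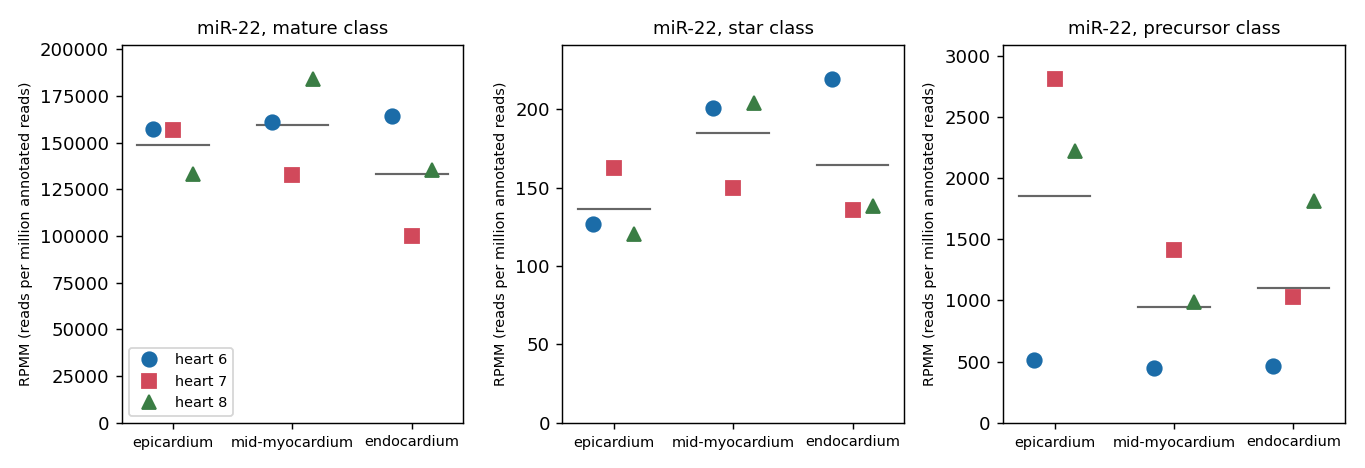
Level of miR-22 in each of the 9 libraries by layer (horizontal axis) and heart (marker), in RPMM on a linear vertical axis from 0, for the mature, star and precursor classes; the line is the mean of the 3 libraries of a layer. The mature and star levels of the layers overlap, whereas the precursor class of heart 6 (451 to 516 RPMM) lies below that of hearts 7 and 8 (988 to 2810 RPMM).

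The layers of the wall were compared to ask whether miR-22 is graded from the outer to the inner surface. No class passed the test in any pair of layers. Mature miR-22 differed by -0.19 on the log2(RPMM + 1) scale in endocardium against epicardium (SE 0.26, 95% interval -0.78 to 0.41, adjusted p = 0.997 by limma with Benjamini-Hochberg adjustment). In mid-myocardium it differed by 0.09 from epicardium (interval -0.50 to 0.68) and by 0.27 from endocardium (interval -0.32 to 0.87). Differences of the mature class larger than these bounds are outside the 95% intervals, and smaller ones could not be resolved.

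For the star strand the same differences were 0.24 in endocardium against epicardium (interval -0.38 to 0.87), 0.44 in mid-myocardium against epicardium (interval -0.19 to 1.06) and 0.19 in mid-myocardium against endocardium (interval -0.43 to 0.82). For the precursor class they were -0.63 (interval -2.23 to 0.97), -0.79 (interval -2.38 to 0.81) and -0.16 (interval -1.75 to 1.44). The intervals of the precursor class were the widest of the 3 because the hearts differed within each layer, and this fit does not pair the layers of a heart. In each heart the precursor class was highest in epicardium. With heart added to the model, no class passed in any pair of layers either.

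Other features did not pass by limma or edgeR either. Of 312 rat features (a miRNA name stem in 1 match class that reached 10 reads in some library), 0 (0%) passed the adjusted threshold of 0.05 in each pair of layers by limma, and 12, 15 and 16 had an unadjusted p under 0.05 in endocardium against epicardium, mid-myocardium against epicardium and mid-myocardium against endocardium. edgeR's quasi-likelihood test on the recovered reads called 0 in each as well. At the level of unique sequences, 11 of the 773 miR-22 sequences had a mean of at least 100 RPMM in a layer and were tested among 577 such sequences of any miRNA. None of the 11 and 0 (0%) of the 577 were called in any pair of layers by limma, with 13, 11 and 17 of the 577 at an unadjusted p under 0.05; edgeR called 0 as well. Of the 11, 1 lay higher in endocardium than in epicardium, with a median difference of -0.19 against 0.00 over the 577, and 8 lay higher in mid-myocardium than in epicardium, with a median of 0.10 against 0.01. In endocardium against epicardium Baggerley's test, which the paper used, called 2 of the 312 features and 1 of the 577 sequences, none of them of miR-22. By this test 3 of the 11 and 26 of the 577 had an unadjusted p under 0.05.

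The hearts were compared because each heart gave all 3 layers. Mature and star reads did not pass the test: the largest difference between hearts was 0.33 for the mature class (adjusted p = 0.842, limma F test with layer as a covariate) and 0.25 for the star class (adjusted p = 0.892). The precursor class was 1.74 higher in heart 7 and 1.73 higher in heart 8 than in heart 6 on the log2 scale. Its adjusted p was 0.0677 by limma, where 0 of 312 features (0%) were called and 41 had an unadjusted p under 0.05. edgeR called it at an adjusted p of 0.00541, among 15 of 312 features (4.81%). Heart 6 lay below the other hearts with no overlap in 16 of the 312 features (5.13%) and above them in 19 (6.09%). The precursor class of all other rat miRNAs summed to 23057 to 24361 RPMM in heart 6 and to 23100 to 27991 RPMM in the other hearts, and these ranges overlapped.

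The name of that class says little about where its reads lie. Of its 10125 reads, 10089 (99.6%) lay on the mature 3p arm, 36 on the 5p arm and 0 in the loop. Reads that start at nt 1 of the mature strand and end at nt 19 made up 76.8% of the class, and reads that start after nt 1 and end at nt 22 made up 18.96%. For miR-22, a read without the last 1 or 2 nt was thus filed as mature and a read without the last 3 nt as precursor, although all of them begin at the same base and keep the seed.

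A single sequence, the 19-nt read without the last 3 nt, carried the difference between hearts. It had 7645 reads. In heart 6 it stood at 137 RPMM in epicardium, 127 RPMM in mid-myocardium and 107 RPMM in endocardium. In heart 7 it stood at 2399, 1150 and 796 RPMM in the same order, and in heart 8 at 1944, 586 and 1480 RPMM. The 3 libraries of heart 6 lay close together and below all of the others. Without this read the precursor class stood at 324 to 379 RPMM in heart 6, 230 to 410 RPMM in heart 7 and 280 to 402 RPMM in heart 8, and the hearts overlapped.

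The reads 1 and 2 nt shorter did not follow it. The 20-nt read ran from 1445 to 1874 RPMM in heart 6, from 1263 to 2175 RPMM in heart 7 and from 1445 to 2038 RPMM in heart 8. The 21-nt read ran from 3757 to 4865 RPMM in heart 6, from 3628 to 4816 RPMM in heart 7 and from 3845 to 5155 RPMM in heart 8. The hearts overlapped for both lengths.

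**Figure D2:**
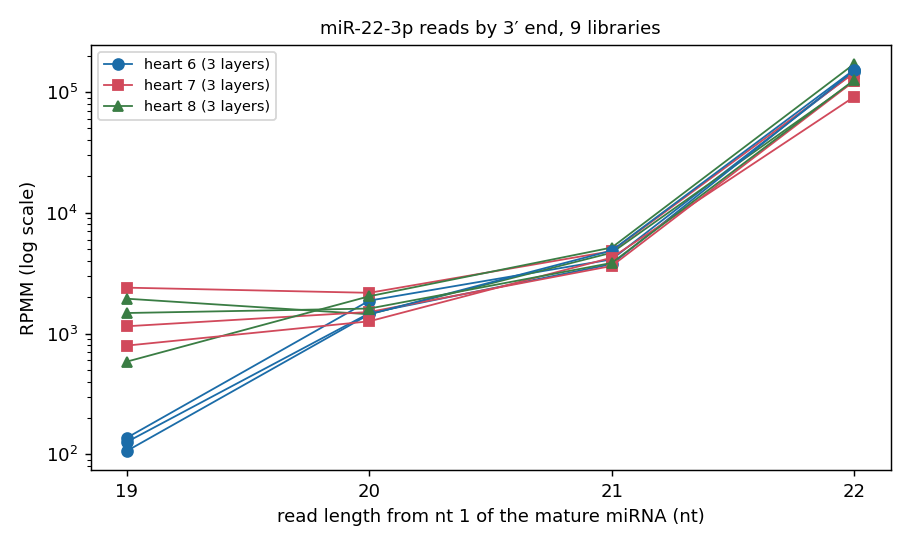
Reads that begin at nt 1 of mature miR-22 and match it, by read length in nt (horizontal axis) and level in RPMM (log vertical axis), with 1 line per library and 1 colour and marker per heart. At 20 and 21 nt the hearts overlap, at 22 nt those of heart 6 (146401 to 152882 RPMM) lie above those of heart 7 (91208 to 143863 RPMM) and inside the range of heart 8 (122901 to 170624 RPMM), and at 19 nt the 3 libraries of heart 6 (107 to 137 RPMM) lie below the other 6 (586 to 2399 RPMM).

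The limma F test on unique sequences, which was added after the values had been seen, put the 19-nt read 3.39 higher in heart 7 and 3.26 higher in heart 8 than in heart 6 on the log2(RPMM + 1) scale, with an adjusted p of 0.00706. It was the only one of the 11 tested miR-22 sequences to be called, beside 34 of 577 sequences (5.89%) in all, with 34 (5.89%) by edgeR and 63 by DESeq2. The calls depended on single libraries. Without the epicardial library of heart 6, 0 sequences were called by limma, 73 had an unadjusted p under 0.05, and the 19-nt read had an adjusted p of 0.0854 and a largest difference of 3.07. Without endocardium of heart 6 limma called 7 sequences, without epicardium of heart 8 it called 8, without epicardium of heart 7 it called 13, and without mid-myocardium of heart 7 it called 21; the 19-nt read was called in each of these. Leaving out any other single library gave 26 to 40 calls. Heart 6 lay below the other hearts with no overlap in 1 of the 11 miR-22 sequences and in 54 of the 577 (9.36%), and above them in 0 of the 11 and in 39 of the 577 (6.76%). Each heart is 1 animal, so the test sets the hearts against the spread between the 3 layers of an animal. The labels give no batch, and the animal and the handling of its tissue and libraries cannot be told apart.

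The sequences called beside it came largely from a few miRNAs. Of the 34 called, heart 6 lay below the other hearts with no overlap in 28. Of the 34, 18 were rat sequences of miR-99a, miR-99b, miR-100, miR-125a or miR-125b, and in 17 of these 18 heart 6 lay below the other hearts with no overlap. The share of these miRNAs among the 577 tested sequences was not counted. The 18 therefore cannot be read as more than their part of the sequences tested. A further 2 were of miR-191. The 4 with the lowest p besides the miR-22 read are shown, and p alone chose them.
miR-99b, 23 nt: cacccgtagaaccgaccttgcgt
miR-100, 23 nt: aacccgtagatccgaacttgtga
miR-125a, 22 nt: tccctgagaccctttaacctga
miR-125b, 20 nt: tccctgagaccctaacttgt
The miR-99b read stood at 22.5 to 38.3 RPMM in heart 6 and at 213 to 1459 RPMM in the other hearts. The miR-100 read stood at 49.2 to 63.9 RPMM and at 226 to 1221 RPMM. The miR-125a read stood at 52.0 to 73.4 RPMM and at 248 to 1521 RPMM, and the miR-125b read at 176 to 247 RPMM and at 1044 to 3856 RPMM. In each of the 4, as in the 19-nt read of miR-22, no library of heart 6 reached any library of hearts 7 and 8. The test between hearts chose these reads on the same values. Their separation, like the counts among the called sequences, is therefore a description and adds no support.

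**Figure D3:**
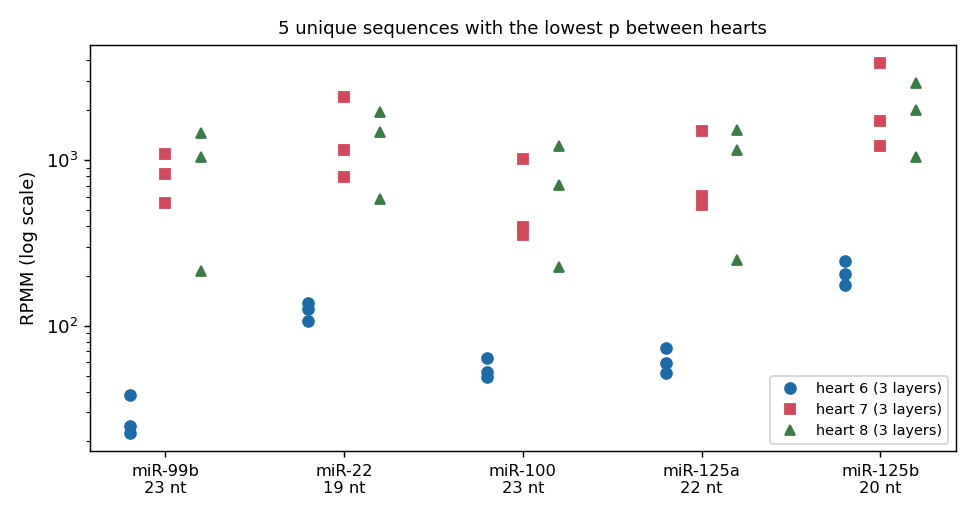
The 5 unique sequences with the lowest p between hearts, by miRNA name and read length (horizontal axis) and level in RPMM (log vertical axis), with 1 point per library and 1 column and marker per heart. For each, the 3 libraries of heart 6 lie below the 6 libraries of hearts 7 and 8, and the miR-22 read is the one of 19 nt. The sequences were chosen by p on these same values.

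The same shortening by 3 nt was looked up for other rat miRNAs. Of 25 rat mature entries, miR-22 included, whose exact sequence minus its last 3 nt had a mean of at least 30 RPMM, heart 6 lay below the other hearts with no overlap in 4, which were miR-22, miR-99b, miR-125a and miR-125b. The pattern was seen in 54 of the 577 tested sequences (9.36%), which were kept at a higher level. Of the 25, miR-103 and miR-107 share 1 such read, and miR-27a and miR-27b share another. For miR-22 the median of hearts 7 and 8 was 3.36 above that of heart 6 on the log2(RPMM + 1) scale, for miR-99b 3.23, for miR-125a 1.63 and for miR-125b 1.02. Some other reads of miR-99b, miR-125a and miR-125b among the called sequences were also lower in heart 6, whereas the 20-nt and 21-nt reads of miR-22 overlapped. A called 24-nt miR-125a read had another order. It stood at 123 to 151 RPMM in heart 6, 114 to 180 RPMM in heart 7 and 18.2 to 70.3 RPMM in heart 8. Exact 22-nt miR-99b stood at 499 to 762 RPMM in heart 6 and at 1109 to 6778 RPMM in the other hearts. A 22-nt miR-125a read without mismatches stood at 2412 to 3090 RPMM and at 5510 to 15070 RPMM. The 20-nt miR-125b read is given above. In the other 21 the hearts overlapped or had another order.

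The ends of the reads were narrowly placed. On the 3p arm, 99.1% of the reads began at nt 1 and 0.554% at nt 2, so that the seed of almost every read was the annotated one. At the 3′ end, 94.2% of the reads ended at nt 22, 3.14% ended 1 nt earlier, 1.18% 2 nt earlier and 0.710% 3 nt earlier, and 0.714% ended 1 nt later. On the 5p arm, 99.03% of the reads began at nt 1 of the star, but 52.4% ended 1 nt before the annotated end, 30.6% at it and 11.3% 2 nt before it. The most frequent star read was accordingly the 21-nt read, with 631 reads against 364 of the annotated 22-nt star.

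The exact sequence made up 91.8 ± 1.18% of the 3p-arm reads (SD, n = 9). It ran from 90.2% in endocardium of heart 7 (95% Wilson interval 90.0 to 90.3%, 144454 reads) to 93.5% in mid-myocardium of heart 6 (93.3 to 93.7%, 45852 reads). Reads without the last 1 nt made up 2.98 ± 0.551% and reads without the last 2 nt 1.12 ± 0.154%. Reads without the last 3 nt made up 0.690 ± 0.579%, from 0.0649% in endocardium of heart 6 (interval 0.0518 to 0.0812%) to 1.51% in epicardium of heart 7 (interval 1.44 to 1.58%). The intervals cover counting error only, because reads amplified by PCR without molecular identifiers are not independent molecules.

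Within the mature class, 92.6 ± 0.774% of the miR-22 reads were exact, the highest mean share among the 46 rat miRNAs with a mature class of at least 1000 RPMM, whose median was 35.1%. The next was miR-30b with 91.3 ± 1.46%, and its libraries overlapped those of miR-22. In single libraries miR-22 was 1st or 2nd.

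None of the 13 shares and ratios of this kind passed an exact permutation test of the F statistic, adjusted over 26 tests by layer and by heart. The smallest p that this design allows is 0.00357, which cannot pass the adjustment for a single share. A share that alone differed could therefore not be called. By layer, the lowest unadjusted p was 0.0429, for templated longer reads (exact permutation test, adjusted p = 0.241), and the star to mature ratio had p = 0.0821 (adjusted p = 0.318). By heart, the share of reads with a changed last base had p = 0.0250, the exact share 0.0357, internal substitutions 0.0429 and reads longer at the 5′ end 0.0464, each with an adjusted p of 0.241 in the exact permutation test. The exact share was 92.8 to 93.5% in heart 6 and 90.2 to 92.2% in the other hearts, so heart 6 did not overlap them. The share of reads without the last 3 nt had p = 0.0857 by heart (exact permutation test, adjusted p = 0.318).

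Longer reads mostly carried an added A. The 23-nt read with A, a base that the hairpin does not have there, had 6213 reads and ran from 488 to 1164 RPMM. The 23-nt read with T, which the hairpin does have there as U, had 1381 reads and ran from 95.2 to 331 RPMM. T is also the first base of the 3′ adapter run TGGAATTC, so a base of the hairpin and a base left of the adapter cannot be told apart in this read. Longer reads that the hairpin does not account for made up 0.630 ± 0.0890% of the 3p-arm reads, and those that it does 0.134 ± 0.0287% (SD, n = 9).

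Substitutions were counted in the 1031191 reads of 22 nt that begin at nt 1, with positions numbered from 1 at the 5′ end, the mature base first and the read base last. All 63 possible single changes at nt 1 to 21 were seen, in 12933 reads or 1.25% of the total, and the share per position ran from 0.0357% at nt 4 to 0.0849% at nt 2, with a median of 0.0612%. Changes to C made up the 3 most frequent kinds: A to C gave 20.5% of these reads, G to C 17.3% and T to C 16.8%. The most frequent single change at nt 1 to 21 was T12C with 555 reads, followed by T5C with 554 and T11C with 548, so no internal position stood apart from the rest.

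The last base did stand apart. T22G had 2372 reads, T22A 1475 and T22C 1247, each above any internal change. T22A and T22C were even across the libraries, at 0.141 ± 0.0213% and 0.121 ± 0.00915% of the 22-nt reads (SD, n = 9). T22G was not even, at 0.224 ± 0.126%, from 0.101% to 0.484%. The 19-nt read followed by TGG, the first bases of the adapter run, has the same sequence as T22G. A changed last base and adapter left on the 19-nt read therefore cannot be told apart in the T22G reads. Followed by T or TG, the 19-nt read has the same sequence as the 20-nt and 21-nt reads without mismatches. The 21-nt read followed by T has the sequence of the exact mature. How far adapter bases enter the levels and shares of these lengths was not tested.

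In heart 7 the T22G read stood at 375, 462 and 450 RPMM in epicardium, mid-myocardium and endocardium. In heart 6 it stood at 302, 190 and 215 RPMM, and in heart 8 at 127, 311 and 205 RPMM. Heart 7 lay above the other hearts with no overlap, a pattern of 1 of the 11 tested miR-22 sequences and of 9 of the 577 sequences (1.56%). In the limma F test between hearts its adjusted p was 0.237, with 34 of 577 sequences (5.89%) called. The part that adapter left on the 19-nt read has in the T22G levels was not tested.

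**Figure D4:**
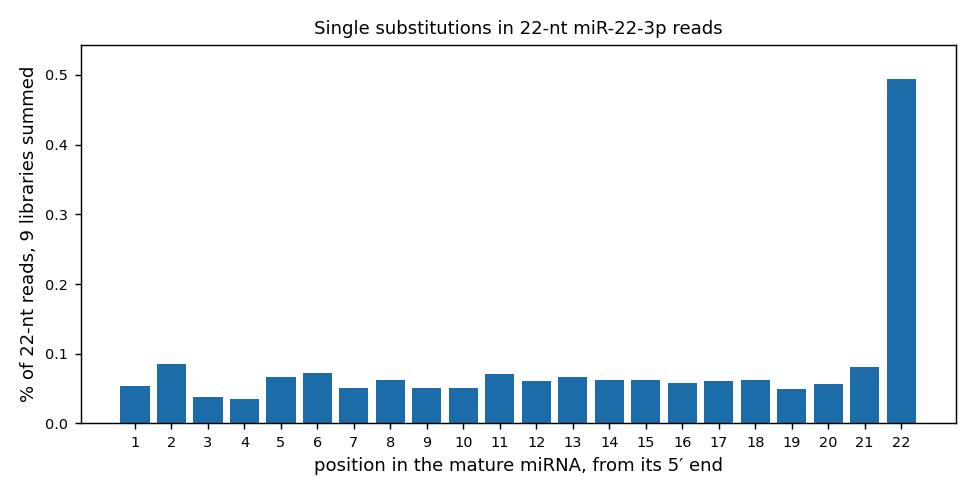
Share of 22-nt miR-22 reads with a single changed base, in percent of the reads of the 9 libraries summed (vertical axis, from 0), by position from the 5′ end of the mature strand (horizontal axis); bars sum the 3 possible changes. Positions 1 to 21 lie between 0.0357% and 0.0849%, and position 22 lies at 0.494%. Position 22 includes the T22G reads, which cannot be told from the 19-nt read followed by adapter bases.

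Reads shortened at the 5′ end, which lose the annotated seed, were few. The 21-nt read that begins at nt 2 had 5624 reads and ran from 504 to 1124 RPMM. The 17-nt read that begins at nt 6 had 738 reads and ran from 66.5 to 130 RPMM, and the 19-nt read that begins at nt 4 had 409 reads. The 18-nt read that begins at nt 5 had 442 reads and stood at 87.3, 77.5 and 78.7 RPMM in epicardium, mid-myocardium and endocardium of heart 6, at 55.8, 42.5 and 32.2 RPMM in heart 7 and at 50.4, 67.4 and 56.6 RPMM in heart 8. Heart 6 lay above the other hearts with no overlap for this read, which was too rare to be among the sequences tested. Of the 577 tested sequences, 39 (6.76%) had that pattern. The 19-nt read that begins at nt 4 has the length of the read without the last 3 nt, but it stood at 52.0 to 64.9 RPMM in heart 6, 41.2 to 53.2 RPMM in heart 7 and 42.1 to 62.7 RPMM in heart 8. Shortened at the 5′ end, reads of all kinds made up 0.783 ± 0.0453% of the 3p-arm reads.

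The 5 rat miRNAs whose mature class was most like that of miR-22 over the 9 libraries were named among 45 others with a mean of at least 1000 RPMM. By Pearson's r of log2(RPMM + 1) they were let-7d (0.85), miR-181c (0.83), miR-26a (0.81), miR-23a (0.81) and miR-30b (0.79), and the median of the 45 was 0.16. The 9 libraries share 3 hearts and each library shares 1 total, so these values describe the libraries only.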

How the data were processed

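Small RNA libraries (TruSeq) of 3 layers of 3 rat hearts were annotated to miRBase 18 by the authors in CLC Genomics Workbench 4.0. Deposited were the RPM of each annotated sequence, by the authors, on the annotated reads of its library (RPMM), a grouped table whose deposited signal is on 2 kinds of total, and the deposited raw count of each unannotated sequence of 10 reads or more. Reads were recovered from RPMM: 100% of the values were whole within 0.01 reads. Depth ran from 283991 to 1428025 reads, and 3 reads were taken as the floor.

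Members were the rat rows with name stem mir-22; members and lists were chosen with earlier results of these data known. Reads were placed on the RefSeq hairpin (GRCr8) without gaps. Features were kept at 10 reads or more in any library, and unique sequences at a layer mean of 100 RPMM or more. Layers were compared by limma (lmFit, eBayes) on log2(RPMM + 1) over all 9 libraries, adjusted by Benjamini-Hochberg, and called under 0.05. A log2(RPMM + 1) difference understates the change of low sequences. For hearts the F test of limma was used, with layer as covariate; on unique sequences this was added after the data were seen. Shares were compared by exact permutation. Limma and the permutation test were tested on simulated data. Alternatives were other pseudocounts, filters and totals, TMM and DESeq2's size factors, edgeR, DESeq2, Baggerley's test, heart as replicate block, and each library left out. Whole reads allowed the count tests. The heart number pairs the libraries, since each animal gave all 3 layers: deviations from the layer means correlated by 0.16 on average within hearts (-0.27 to 0.42, 9 pairs). With 1 library per layer and heart, p-values between layers rest on the spread between animals, and those between hearts on the spread between layers of the same animals.

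Named sequences were the exact mature and star, the 8 other mature, 4 other star and 4 precursor sequences of highest mean, those called, and up to 6 of the most frequent changes; other miRNAs were the 3 of highest mean after miR-22 and the 5 of most similar pattern. T22G and the 19-nt read were singled out between hearts after their values were seen, as were the calls beside them and the look at other miRNAs without their last 3 nt. R 4.3.3, limma 3.58.1, edgeR 4.0.16, DESeq2 1.42.0 and Python were used.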

Additional observations from a re-analysis of the deposited data

Results flagged for a closer look

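Reads of miR-22 outside the rat rows are given here because they lie in data that no comparison used, above the 3 reads that a count of 0 allows. Rows named for miR-22 of 7 other species held 56 sequences and 594 reads, from 24 to 138 reads in a library. Among the unannotated sequences, 3 held nt 3 to 18 of mature miR-22, with 302 reads in all and 7 to 58 in a library. Over these rows and the rat rows, 21 sequences ran 4 nt or more past the mature end, with 768 reads, and 6 of them (669 reads) went on with the first bases of the run TGGAATTC, which opens the 3′ adapter of Illumina's small RNA kits. The longest had 9 added bases and 53 reads. The read with 8 added bases, shown with these in capitals because it ends with the whole run, had 178 reads.
unannotated, 30 nt: aagctgccagttgaagaactgtTGGAATTC
Of all annotated and unannotated sequences, 22 ended in those 8 bases, and 20 of these were not of miR-22.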

How the results depend on the processing

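Of 702 recomputed values, 690 kept their direction and their side of the threshold. They include the shares, where a single share could not pass the adjustment. The precursor class differed between hearts past the threshold with a pseudocount of 10 (1.72, adjusted p = 0.00706), TMM normalization (1.84, 0.0397), edgeR (1.86, 0.00541) and DESeq2 (1.83, 1.87e-07), against 1.74 by limma; leaving out single libraries gave 1.47 to 2.10, past the threshold without mid-myocardium of heart 8 (2.003, adjusted p = 0.0467). The cause was not tested. The number of miR-22 sequences called between hearts was 8 with no filter, when 46358 sequences were tested, against 1, and 0 to 1 with single libraries left out; the difference of the 19-nt read then ran from 3.07 to 3.77. Directions that turned with a library left out belonged to values that had not passed: mature in endocardium against epicardium (-0.35 to 0.0054; positive without endocardium of heart 7), mature in mid-myocardium against epicardium (-0.0216 to 0.21; negative without mid-myocardium of heart 8) and precursor in mid-myocardium against endocardium (-0.67 to 0.31; positive without mid-myocardium of heart 6 or without endocardium of heart 8). Over all miRNAs, 309 of 46358 sequences were called between hearts with no filter and 63 of 577 by DESeq2, against 34. In endocardium against epicardium, limma called 1 of 306 features without endocardium of heart 7, and Baggerley's test called 2 of 312, none of them of miR-22. With heart number as replicate block 0 calls changed; layers permuted within hearts could not test stability, since the smallest p they allow, 0.0278, cannot pass the adjustment for a single share. The block gave -0.19 for mature and -0.63 for precursor in endocardium against epicardium (adjusted p = 0.987). In the libraries with the fewest reads, levels under 10.6 RPMM could not be told from 0.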
